A study of Arabidopsis thaliana with 6 samples.

Results

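The 10 genes described here belong to the mitochondrial retrograde response of Arabidopsis thaliana and were taken by their gene identifiers. Of 33532 identifiers in the deposited table they are 7 target genes, namely UPOX (AT2G21640), AT12CYS-2 (AT5G09570), BCS1 (AT3G50930), SOT12 (AT2G03760), UGT74E2 (AT1G05680), CYP81D8 (AT4G37370) and ABCB4 (AT2G47000), and 3 genes of NAC transcription factors, namely NAC013 (AT1G32870), NAC017 (AT1G34190) and NAC053 (AT3G10500). All 10 had a mean of at least 1 FPKM (fragment counts corrected for transcript length and library size) and were among the 19035 genes tested. RNA sequencing compared whole wild-type seedlings of the Col-0 accession that had spent 10 days on solid 1/2 MS plates containing 5 µg/mL doxycycline (3 libraries) with seedlings from plates lacking the drug (3 libraries). Doxycycline, a tetracycline, inhibits ribosomes of the bacterial kind, which mitochondria and plastids also use. In the series' design text the 3 libraries of a condition are called biological replicates, with no word on shared plates or harvests, so p-values here measure the spread between these libraries.

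Retrograde signalling is the route by which a disturbed mitochondrion alters the expression of nuclear genes. In Arabidopsis it runs largely through NAC transcription factors that are held in membranes of the endoplasmic reticulum by a tail, are cut free when mitochondria are disturbed, and enter the nucleus. There NAC017 and NAC013 bind a short element, the mitochondrial dysfunction motif, in the promoters of genes such as the alternative oxidase gene AOX1A and UPOX. The targets encode mitochondrial stress proteins and enzymes that act on hormones and toxic compounds, and their transcripts are widely used to report mitochondrial stress.

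The stretches below show the mitochondrial dysfunction motif of these promoters, searched as CTTG, any 5 bases, then CAAG or CACG, on both strands. They were read from the RefSeq genome of assembly TAIR10.1, on the strand of the gene, with the motif in capitals and all other bases in lower case. The first is the whole 250 bases before the annotated transcript start of UPOX, the member with the highest level under doxycycline. In lower case it also holds 2 W-boxes (TTGACC or TTGACT, both on the other strand here) and 1 G-box (CACGTG). The shorter stretches show the matches of the other members and of AOX1A side by side.
UPOX promoter, chr2:9254128-9254377, plus strand: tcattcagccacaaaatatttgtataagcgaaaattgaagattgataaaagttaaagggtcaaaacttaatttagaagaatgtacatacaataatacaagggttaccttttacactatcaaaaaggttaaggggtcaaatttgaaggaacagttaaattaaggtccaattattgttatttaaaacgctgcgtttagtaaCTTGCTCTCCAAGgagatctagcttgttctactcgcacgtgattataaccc
AOX1A, chr3:7906532-7906561, plus strand: aagtatcttccatCTTGCTCTCCAAGaaaa
AOX1A, chr3:7906498-7906534, plus strand: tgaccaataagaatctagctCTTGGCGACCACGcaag
UGT74E2, chr1:1704809-1704845, minus strand: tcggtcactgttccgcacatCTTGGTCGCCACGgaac
CYP81D8, chr4:17571867-17571903, minus strand: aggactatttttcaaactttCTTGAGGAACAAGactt
SOT12, chr2:1150641-1150677, minus strand: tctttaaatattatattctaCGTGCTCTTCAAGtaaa
NAC017, chr1:12451275-12451311, plus strand: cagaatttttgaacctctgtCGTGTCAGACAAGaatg
AT12CYS-2, chr5:2970491-2970527, plus strand: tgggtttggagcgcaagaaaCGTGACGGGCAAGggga
The UPOX match and the downstream AOX1A match hold the same 13 letters, CTTGCTCTCCAAG, which match the motif on both strands. In SOT12, NAC017 and AT12CYS-2 the motif lies on the strand opposite to the gene, so it appears as CGTG, 5 bases and CAAG.

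In the 300 bases from 250 before to 50 after the annotated transcript start, 6 of the 10 genes held this motif, against 391 of 27443 protein-coding promoters (1.42%) searched in the same way. BCS1, ABCB4, NAC013 and NAC053 held no match in that window, nor in 1050 bases, where 6 members and 4.62% of promoters had one. Measured from the transcript start, the match ran from base -51 to -39 in UPOX, from -110 to -98 in NAC017 and from -140 to -128 in CYP81D8. It lay after the start in SOT12 (bases 7 to 19) and in AT12CYS-2 and UGT74E2 (bases 14 to 26 in both). A W-box, the element of WRKY factors, was present in 5 members and 32.4% of promoters, and a G-box in 2 members and 7.68% of promoters. The motif was first defined on genes of this kind, and a match describes letters, not binding.

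**Figure D1:**
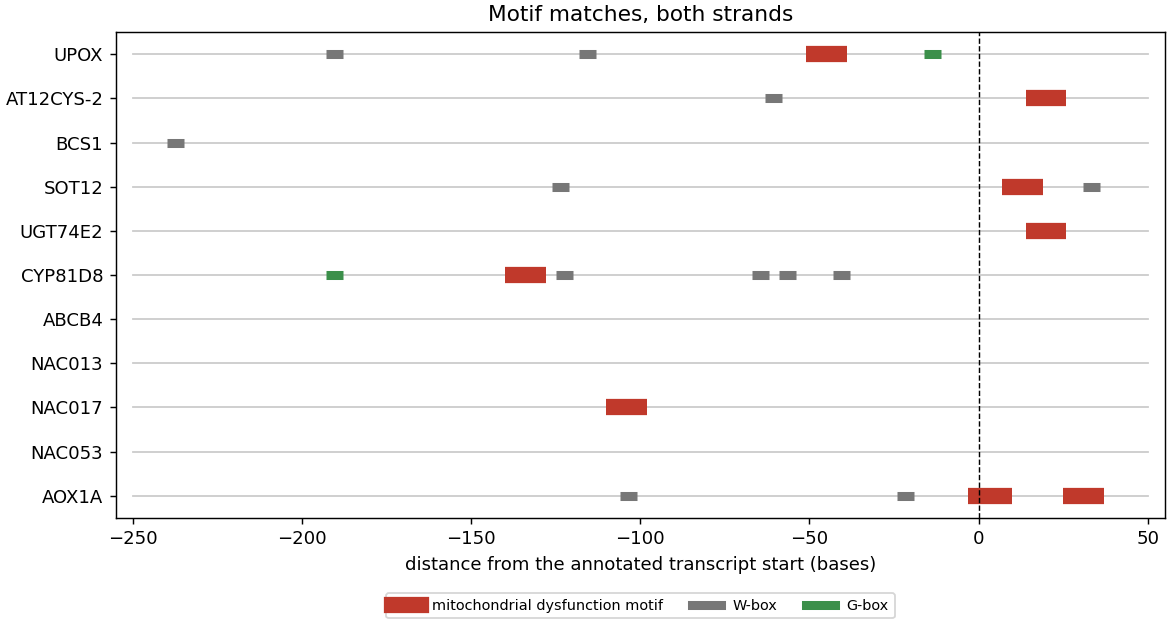
Motif matches around the annotated transcript start (dashed line at 0) of the 10 genes and AOX1A, in bases along the x axis, from 250 before to 50 after. Red blocks are the mitochondrial dysfunction motif, grey blocks W-boxes and green blocks G-boxes; the red block is present in 6 of the 10 genes, before the start in UPOX, CYP81D8 and NAC017 and after it in AT12CYS-2, SOT12 and UGT74E2.

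The libraries were close in estimated depth, from 20500000 to 20800000 fragments with doxycycline and from 18500000 to 21800000 in controls. The controls did not resemble each other: the median standard deviation of a gene was 0.131 log2 units between doxycycline libraries and 0.459 between controls. Control 1 stood apart from controls 2 and 3, as the lowest of the controls in 62.1% of genes tested, and each of the 10 genes is given below with and without it. Summed organ markers also differed between the controls, though single markers did not all follow their sum. The summed level of 5 shoot markers was 44700 to 46800 FPKM with doxycycline and 55300, 14000 and 23400 FPKM in controls 1 to 3. Most of it came from LHCB1.3, at 38900, 6240 and 9300 FPKM in controls 1 to 3, whereas among controls LHCB2.1, FAMA and CER1 were highest in control 3. For 7 root markers the sum was 733 to 813 FPKM with doxycycline and 560, 1640 and 1600 FPKM in controls 1 to 3. Most of it was PYK10, at 544, 1590 and 1550 FPKM in controls 1 to 3. EXPA7, at 0.696, 0.67 and 6.79 FPKM, was not higher in control 2 than in control 1, whereas the other root markers were. There were 0 markers of either organ at 0 in any library. Seed storage markers (3 genes) summed to 12.6 to 15.6 FPKM with doxycycline and to 23.7, 0.237 and 7.20 FPKM in the controls, where SESA1 was at 0 in control 2. That sum was mostly CRU1, at 19.6, 0.178 and 3.71 FPKM in controls 1 to 3, while SESA1 had its highest level, 3.09 FPKM, in control 3 and lay at 0.137 to 0.203 FPKM with doxycycline. Flower markers (4 genes) summed to 0.304 to 0.777 FPKM with doxycycline and to 0.613, 4.58 and 9.77 FPKM in the controls, with 1 to 3 of them at 0 in each doxycycline library and 2, 0 and 0 at 0 in controls 1 to 3. The part of these differences in the results below was not tested, and in whole seedlings fewer cells of a type and less RNA per cell cannot be told apart.

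Transcripts of the 10 retrograde genes varied less across the doxycycline libraries than across the controls, where control 1 was the lowest control for all 10. The doxycycline libraries of a gene differed by up to 1.78 times (CYP81D8). Doxycycline values stood mostly above control 1 and below controls 2 and 3. UPOX and SOT12 lay above every control (9.59% of genes tested) and NAC017 below every control (25.7%), and the other 7 overlapped the control range. With limma on log2(FPKM + 1) and Benjamini-Hochberg adjustment over all genes, 0 of the 10 genes passed 0.05, as did 0.0% of the 19035 genes tested. The lowest adjusted p was 0.173 among the 10 genes and 0.121 among all genes.

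**Figure D2:**
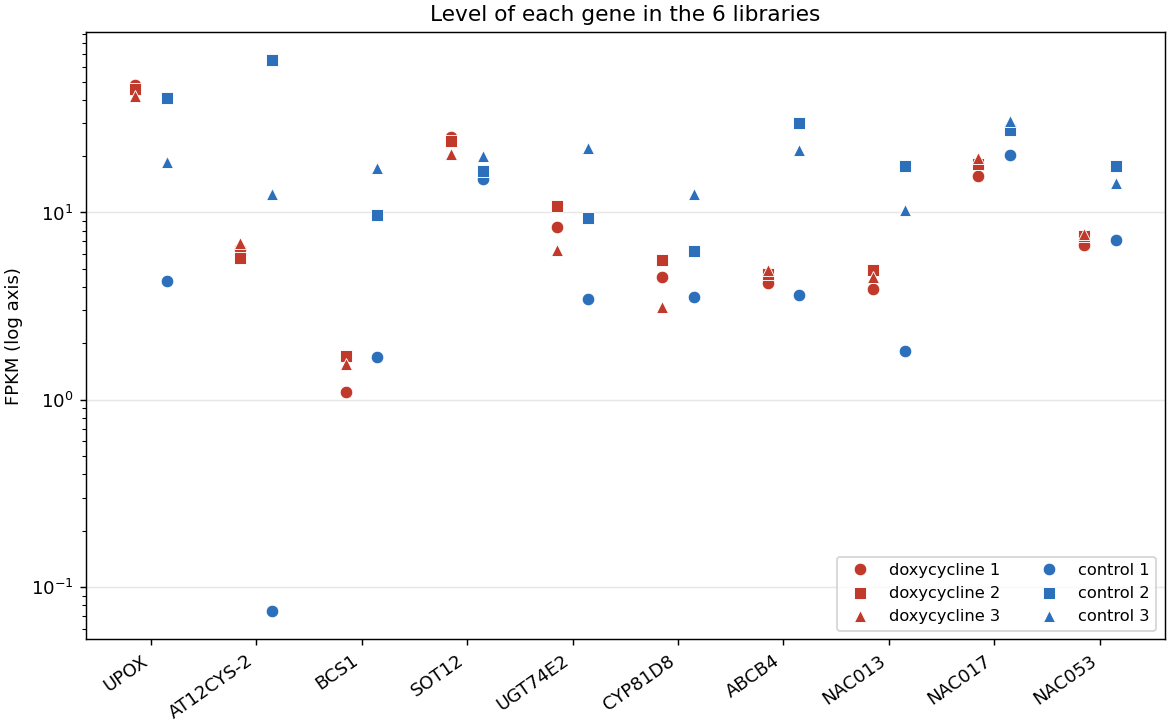
Level of each gene in FPKM (log axis) in the doxycycline libraries (red) and control libraries (blue), with the library number as circle (1), square (2) or triangle (3). The red symbols of a gene lie closer together than its blue symbols, and the blue circle of control 1 is the lowest control for all 10 genes, down to 0.074 FPKM for AT12CYS-2.

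Among the regulators, NAC017 encodes the membrane-tethered factor regarded as the main switch of the pathway, on the plus strand of chromosome 1. It stood at 15.7, 18.1 and 19.6 FPKM with doxycycline, against 20.2, 27.6 and 30.7 FPKM in controls 1 to 3. All doxycycline libraries lay below all controls, by a narrow margin for control 1. The means were 17.8 ± 1.95 FPKM with doxycycline and 26.2 ± 5.41 FPKM for controls (SD, n = 3 each), a log2 difference of -0.51 (SE 0.212, limma, unadjusted p = 0.0453, Benjamini-Hochberg adjusted p = 0.189). The median of all genes lay at -0.29 on the deposited scale and at 0.00 after median-of-ratios scaling, under which NAC017 lay at -0.20 and its groups overlapped. NAC016 (AT1G34180), a related NAC gene beside it in the genome, was low throughout, at 0.397 to 0.715 FPKM with doxycycline and 0.624, 1.32 and 1.10 FPKM in controls 1 to 3.

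NAC013 encodes a second tethered factor, itself a target of the pathway, also on the plus strand of chromosome 1. Its levels were 3.92, 4.93 and 4.52 FPKM with doxycycline against 1.83, 17.8 and 10.3 FPKM in controls 1 to 3. Every doxycycline library stood above control 1 and below controls 2 and 3, so the groups overlapped. The means of 4.46 ± 0.508 FPKM with doxycycline and 9.97 ± 7.97 FPKM for controls (SD, n = 3 each) gave a log2 difference of -0.63 (SE 0.644, limma adjusted p = 0.522), and -0.06 without control 2. It shares 20 annotated bases with AT1G32880 on the other strand, which reached at most 0.819 FPKM in any library. Strand handling is not given in the sources used here.

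NAC053 (chromosome 3, plus strand) encodes another tethered NAC factor, known with its close relative NAC078 for raising proteasome genes under proteotoxic stress. It was at 6.70, 7.46 and 7.67 FPKM with doxycycline, against 7.09, 17.6 and 14.4 FPKM in the controls. Control 1 fell within the range of the doxycycline libraries, and controls 2 and 3 were 2.42 and 1.98 times the doxycycline mean. The log2 difference was -0.68 (SE 0.326, limma adjusted p = 0.225) and lay at -0.37 after median-of-ratios scaling. Without control 1, all 3 NAC genes fell past the threshold, as did 35.6% of all genes tested. Their log2 differences were then -1.42 (SE 0.253, limma adjusted p = 0.00737) for NAC013, -0.68 (SE 0.156, adjusted p = 0.0156) for NAC017 and -1.04 (SE 0.167, adjusted p = 0.00550) for NAC053. Against control 1 alone, NAC013 was higher by 0.94, while NAC017 lay at -0.18 and NAC053 at 0.03. A fit with 1 control takes its error from the doxycycline libraries alone, which varied less than the controls. For single genes, only its differences are therefore given here and below. Where its counts of genes past the threshold are given, they carry the same limit.

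Among the targets whose proteins belong to mitochondria, UPOX stood highest with doxycycline. UPOX is named for its rise under oxidative stress, and its gene lies on the plus strand of chromosome 2. It reached 48.1, 45.6 and 41.9 FPKM with doxycycline against 4.31, 40.8 and 18.6 FPKM in controls 1 to 3. The doxycycline libraries were above all controls, but the lowest of them exceeded control 2 only slightly. Means were 45.2 ± 3.14 FPKM with doxycycline and 21.3 ± 18.4 FPKM for controls (SD, n = 3 each), with a log2 difference of 1.50 (SE 0.673, limma adjusted p = 0.209). The doxycycline mean was 10.5 times control 1, 1.11 times control 2 and 2.42 times control 3, taken on mean FPKM. Leaving out control 1 lowered the log2 difference to 0.69 (SE 0.312, limma adjusted p = 0.115). With control 1 as the only control it was 3.12.

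AT12CYS-2, on the plus strand of chromosome 5, encodes a small mitochondrial protein with paired cysteine motifs. It was even with doxycycline, at 6.35, 5.75 and 6.89 FPKM, and spread over 0.074, 65.3 and 12.6 FPKM in controls 1 to 3. At the estimated depth, those control values correspond to about 1.29, 1100 and 248 fragments, so control 1 had hardly more than a single fragment. The log2 difference of -0.43 (SE 1.32, limma adjusted p = 0.834) had no stable sign. It was -2.04 (SE 0.610, limma adjusted p = 0.0369) without control 1 and 0.94 (adjusted p = 0.594) without control 2. With control 1 as the only control it was 2.77. Its relative AT12CYS-1 (AT5G64400) showed no such spread, at 232, 189 and 199 FPKM with doxycycline and 150, 167 and 192 FPKM in the controls.

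BCS1, on the plus strand of chromosome 3, encodes an AAA-type ATPase of the mitochondrial outer membrane, also called OM66, that responds to salicylate and stress. It was low with doxycycline, at 1.10, 1.71 and 1.56 FPKM, and stood at 1.69, 9.75 and 17.3 FPKM in controls 1 to 3. Control 1 was as low as the doxycycline libraries, and controls 2 and 3 were 6.71 and 11.9 times the doxycycline mean. BCS1 had the lowest p of the 10 genes, with a log2 difference of -1.73 (SE 0.660, limma, unadjusted p = 0.0341, adjusted p = 0.173). It fell without control 1 (-2.52, SE 0.281, limma adjusted p = 0.00209) and lay at -0.14 against control 1 alone. The neighbouring BCS1-like gene AT3G50940 stayed below 0.5 FPKM in every library.

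Among the enzymes of detoxification and hormone conjugation, SOT12 was the most even of the 10 genes over the 6 libraries. It encodes a sulfotransferase that adds sulfate to salicylate, steroids and flavonoids, on the minus strand of chromosome 2. Its levels were 25.4, 23.9 and 20.5 FPKM with doxycycline and 15.0, 16.7 and 20.0 FPKM in controls 1 to 3. The groups did not overlap, though the lowest doxycycline library and control 3 nearly met. Means of 23.3 ± 2.53 FPKM with doxycycline and 17.2 ± 2.54 FPKM for controls (SD, n = 3 each) gave a log2 difference of 0.42 (SE 0.189, limma adjusted p = 0.212), 0.73 after median-of-ratios scaling, and between 0.33 and 0.73 in every alternative. Without control 1 it was 0.33 (SE 0.165, limma adjusted p = 0.147), and against control 1 alone 0.59. SOT11 (AT2G03750), its neighbour of the same family, did not follow it, at 20.8, 21.2 and 21.7 FPKM with doxycycline and 19.7, 24.3 and 31.5 FPKM in controls. SOT13 (AT2G03770), on the other side, stayed below 1 FPKM. Reads shared by such close copies may have been split between them.

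UGT74E2 (chromosome 1, minus strand) encodes a glucosyltransferase that conjugates the auxin indole-3-butyric acid. It stood at 8.32, 10.8 and 6.34 FPKM with doxycycline, against 3.45, 9.33 and 22.1 FPKM in controls 1 to 3. The doxycycline values lay above control 1, on both sides of control 2 and below control 3. Its log2 difference of -0.13 (SE 0.565, limma adjusted p = 0.887) changed sign with several settings, to 0.18 after median-of-ratios scaling, 0.22 after quantile normalization, 0.46 without control 3 and 0.04 without doxycycline library 3. It was -0.73 (SE 0.377, limma adjusted p = 0.155) without control 1. Against control 1 alone it was higher by 1.07. The adjacent copy UGT74E1 (AT1G05675) was lower throughout, at 0.161 to 0.350 FPKM with doxycycline and 0.535 to 1.27 FPKM in controls.

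CYP81D8 (chromosome 4, minus strand) encodes a cytochrome P450 enzyme that responds to many toxic compounds and to mitochondrial stress. Its levels were 4.50, 5.58 and 3.14 FPKM with doxycycline against 3.55, 6.21 and 12.5 FPKM in controls 1 to 3. The doxycycline libraries lay on both sides of control 1 and below the others. The log2 difference was -0.52 (SE 0.417, limma adjusted p = 0.420), -0.11 without control 3, and -0.89 (SE 0.332, adjusted p = 0.0686) without control 1. Against control 1 alone it was 0.22.

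ABCB4, a transporter gene on the minus strand of chromosome 2, encodes a plasma membrane carrier that moves auxin, mainly in roots. It was at 4.21, 4.71 and 4.95 FPKM with doxycycline, against 3.60, 30.1 and 21.6 FPKM in controls 1 to 3. Control 1 lay just under the doxycycline libraries, and controls 2 and 3 were 6.51 and 4.68 times their mean. Means were 4.62 ± 0.376 FPKM with doxycycline and 18.4 ± 13.5 FPKM for controls (SD, n = 3 each), a log2 difference of -1.40 (SE 0.666, limma adjusted p = 0.224). ABCB4 fell without control 1 (-2.24, SE 0.194, limma adjusted p = 0.00119) and lay at 0.29 with control 1 as the only control. The summed root markers, mostly PYK10, were likewise higher in controls 2 and 3, at 1640 and 1600 FPKM, than with doxycycline, at 733 to 813 FPKM. Among these markers EXPA7 was not higher in control 2. The part of root markers in the ABCB4 values was not tested. The gene shares 31 bases with AT2G46995 on the same strand, which stood at 0 with doxycycline and at most at 0.455 FPKM in controls, and 152 bases with a non-coding RNA gene on the other strand.

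Counted over the 10 genes, an unadjusted p under 0.05 in limma was reached by 0 genes on the higher side, against 6.83% of genes tested, and by 2 on the lower side (NAC017 and BCS1), against 18.8%. Complete separation of the groups was seen on the higher side in 2 of 10 genes (9.59% of genes tested) and on the lower side in 1 of 10 (25.7%). These shares are near those of all genes. Without control 1 the fit called 6 of the 10 lower (35.6% of genes tested) and 0 higher (9.77%), the 6 being NAC013, NAC017, NAC053, BCS1, AT12CYS-2 and ABCB4. With control 1 as the only control, the log2 differences of the 10 genes ran from -0.18 (NAC017) to 3.12 (UPOX). Of the 6 genes called lower without control 1, NAC017 and BCS1 stayed below 0 there. NAC013, NAC053, AT12CYS-2 and ABCB4 lay above 0. The fits without control 1 and with it alone share the doxycycline libraries and split the controls.

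**Figure D3:**
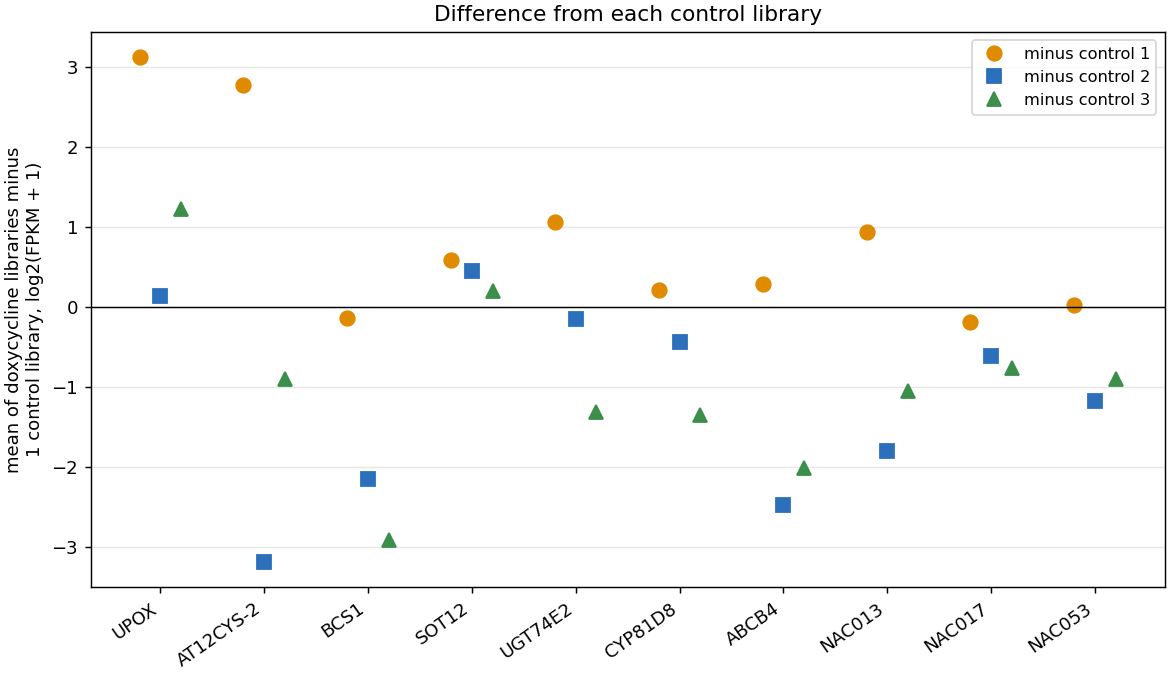
Mean of the 3 doxycycline libraries minus each control library for the 10 genes, in log2(FPKM + 1) units, with control 1 in orange, control 2 in blue and control 3 in green. The orange points run from -0.18 (NAC017) to 3.12 (UPOX), and 8 of the 10 genes have their control 2 and control 3 points below 0, while SOT12 and UPOX have all 3 points above it.

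Taken per control library, the doxycycline mean of the 10 genes had a median distance of 0.44 from control 1, -0.89 from control 2 and -0.98 from control 3, where the medians of all genes tested were -0.00, -0.54 and -0.30. All doxycycline libraries lay above control 1 in 6 of the 10 genes (37.0% of genes tested) and below it in 1 (36.9%). They lay below control 2 in 7 of the 10 (68.9%) and above it in 2 (21.6%), and below control 3 in 8 (59.3%) and above it in 2 (27.1%). The shares against control 2 are near those of all genes, and the distance of any of these shares from that of all genes was not tested. The median standard deviation of the 10 genes was 0.144 log2 units between doxycycline libraries, close to the 0.131 of all genes. Between controls it was 1.3, against 0.459. The highest control was control 2 for 5 genes and control 3 for the other 5.

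In order of mean level with doxycycline, which FPKM expresses per length of transcript, the genes ran UPOX, SOT12, NAC017, UGT74E2, NAC053, AT12CYS-2, ABCB4, NAC013, CYP81D8 and BCS1. UGT74E2, NAC053 and AT12CYS-2 formed a run whose neighbours overlapped in their libraries, as did ABCB4, NAC013 and CYP81D8. The other neighbouring pairs did not overlap. In controls the order was NAC017, AT12CYS-2, UPOX, ABCB4, SOT12, NAC053, UGT74E2, NAC013, BCS1 and CYP81D8, and every neighbouring pair overlapped. BCS1 and CYP81D8 were thus at the low end of both orders.

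The genes also differed among themselves in profile over the 6 libraries, measured as the root-mean-square difference of log2(FPKM + 1) values after each gene was centred on its mean. The closest pair was NAC017 and NAC053 (0.24), followed by UGT74E2 and CYP81D8 (0.31), which were both highest in control 3. BCS1 and ABCB4, and ABCB4 and NAC013, were at 0.40. The farthest pairs were AT12CYS-2 with SOT12 (1.74) and UPOX with BCS1 (1.71). These distances rest on 6 libraries of which 3 are the uneven controls.

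The same measure was used to name the most similar profiles among 10984 other genes with a range of at least 1 log2 unit. NAC053 was closest to IPK1 (AT5G42810, 0.028), an inositol phosphate kinase gene, and to TIM50 (AT1G55900, 0.041), a gene of mitochondrial protein import. NAC017 was closest to AT5G44860 (0.068) and AT3G16270 (0.080), and NAC013 to LEP (AT5G13910, 0.101), an ERF-type transcription factor gene, and AT1G62370 (0.118). For UPOX the nearest were the plastid identifiers ATCG01170 (0.297) and ATCG00410 (0.335), both listed at 0 in control 1. The nearest to AT12CYS-2 was LSU1 (AT3G49580, 0.513), a gene induced by low sulfur, at 25.7, 25.2 and 22.3 FPKM with doxycycline and 5.48, 561 and 75.3 FPKM in controls 1 to 3. The microRNA precursor gene MIR156d (AT5G10945) came next to it, at 0.569.

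BCS1 had its nearest profiles in ADT5 (AT5G22630, 0.107), for a phenylalanine synthesis enzyme, and JMT (AT1G19640, 0.134), for the enzyme that makes methyl jasmonate. SOT12 had them in the superoxide dismutase gene CSD1 (AT1G08830, 0.108), at 53.8, 45.5 and 34.8 FPKM with doxycycline and 25.8, 31.0 and 35.7 FPKM in controls, and in AT2G42770 (0.124). UGT74E2 was nearest to AT1G71520 (0.071) and the invertase gene ATBFRUCT1 (AT3G13790, 0.189), and CYP81D8 to IGMT2 (AT1G21120, 0.081), for a methyltransferase of indole glucosinolates, and AT1G03220 (0.105). ABCB4 lay nearest to an Hsp70 gene, AT3G09440 (0.089), at 51.1, 55.3 and 58.1 FPKM with doxycycline and 39.1, 275 and 230 FPKM in controls, and to AT1G68360 (0.102).

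Other genes of mitochondrial stress, 22 of 24 tested, also stood mostly between control 1 and the other controls. Their median log2 difference was -0.26, where that of all genes was -0.29, and 0 passed the threshold in limma. Control 1 was the lowest control in 20 of the 22 (62.1% of genes tested). All doxycycline libraries lay above it in 16 (37.0%), below control 2 in 18 (68.9%) and below control 3 in 16 (59.3%). Without control 1 the fit called 7 of the 22 lower (35.6%) and 0 higher (9.77%), a lower share near that of all genes. The fit against control 1 alone takes its error from the doxycycline libraries only. Its calls cannot show whether these genes exceed the share of all genes. Against control 1 alone it called 6 higher (7.51%) and 1 lower (5.46%). AOX1A, the gene most often used to report mitochondrial stress, stood at 38.8, 42.5 and 36.7 FPKM with doxycycline and 23.4, 46.6 and 44.9 FPKM in controls 1 to 3 (log2 difference 0.10, SE 0.281, limma adjusted p = 0.826). Its doxycycline values were above control 1 and below the others, as for NAC013, AT12CYS-2 and ABCB4.

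By the lowest p in that list, AOX1D (AT1G32350), a second alternative oxidase gene, was at 0.072, 0.071 and 0.142 FPKM with doxycycline against 0.998, 1.51 and 3.99 FPKM in controls (log2 difference -1.42, SE 0.397, limma adjusted p = 0.137). Its doxycycline values lie near the floor, like the 0.074 FPKM of AT12CYS-2 in control 1. DTX1 (AT2G04040), for a transporter that expels toxic compounds, was at 9.53, 12.6 and 7.50 FPKM with doxycycline and 2.27, 5.38 and 7.54 FPKM in controls (0.93, SE 0.388, adjusted p = 0.193). AT2G41380, for a methyltransferase family protein, was at 11.2, 10.9 and 12.7 FPKM with doxycycline and 11.8, 19.6 and 34.3 FPKM in controls (-0.74, SE 0.358, adjusted p = 0.228).

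Further regulators of the response, 10 of 13 tested, had a median of -0.66, where that of all genes was -0.29, and of -0.44, -0.60 and -0.89 against controls 1 to 3. Here 8 of 10 lay below every control (25.7% of genes tested) and 7 had an unadjusted p under 0.05 on the lower side (18.8%), while 0 passed after adjustment. Without control 1 the fit called 6 of the 10 lower (35.6%) and 0 higher (9.77%). NAC082 (AT5G09330), known from the response to disturbed ribosomes, was at 6.93, 7.17 and 8.72 FPKM with doxycycline and 15.0, 32.3 and 31.1 FPKM in controls (log2 difference -1.59, SE 0.313, limma adjusted p = 0.121). WRKY15 (AT2G23320), a repressor of the mitochondrial response to salt, was at 25.3, 28.1 and 31.4 FPKM with doxycycline and 48.5, 39.3 and 55.8 FPKM in controls (-0.73, SE 0.195, adjusted p = 0.134). SRO1 (AT2G35510), a relative of the NAC013-binding protein RCD1, was at 10.7, 10.4 and 12.0 FPKM with doxycycline and 14.2, 21.9 and 19.9 FPKM in controls (-0.69, SE 0.214, adjusted p = 0.143).

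Other NAC factors with a membrane tail, 8 of 12 tested, had a median of -0.59, with 4 below every control (25.7% of genes tested), 0 above (9.59%) and 0 past the threshold. Without control 1 the fit called 6 of the 8 lower (35.6%) and 0 higher (9.77%). NAC078 (AT5G04410), the partner of NAC053 and also counted among the regulators above, was at 24.2, 25.9 and 26.7 FPKM with doxycycline and 27.0, 48.8 and 45.9 FPKM in controls (log2 difference -0.60, SE 0.250, limma adjusted p = 0.192). NAC091 (AT5G24590) was at 9.42, 9.67 and 10.5 FPKM with doxycycline and 15.0, 24.5 and 24.5 FPKM in controls (-1.01, SE 0.235, adjusted p = 0.128), and NTL9 (AT4G35580) at 9.20, 12.0 and 12.1 FPKM with doxycycline and 15.1, 30.8 and 26.6 FPKM in controls (-1.01, SE 0.290, adjusted p = 0.138). Unlike NAC013 and NAC053, these 3 lay below control 1 as well in all doxycycline libraries.

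Relatives and neighbours of the 10 genes, 16 of 27 tested, had a median of -0.63, with 6 below every control (25.7% of genes tested), 0 above (9.59%) and 0 past the threshold. Without control 1 the fit called 10 of the 16 lower (35.6%) and 0 higher (9.77%). CYP81D1, from the family of CYP81D8, was at 1.88, 1.40 and 1.65 FPKM with doxycycline and 2.78, 33.0 and 37.0 FPKM in controls (log2 difference -2.69, SE 0.839, limma adjusted p = 0.143). Of the NAC053 relatives, NAC050 was at 7.13, 6.55 and 8.31 FPKM with doxycycline and 13.5, 13.6 and 13.6 FPKM in controls (-0.81, SE 0.182, adjusted p = 0.127), and NAC052 at 10.1, 10.7 and 11.5 FPKM with doxycycline and 17.7, 28.8 and 24.8 FPKM in controls (-1.05, SE 0.221, adjusted p = 0.123). NAC050 was the even one among these controls, and its groups were well apart.

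Proteasome subunit genes, the known targets of NAC053 and NAC078, were all tested (27 of 27) and had a median of -0.11, nearer to 0 than the -0.29 of all genes. Of these, 9 lay below every control (25.7% of genes tested) and 2 above (9.59%), with 0 past the threshold. Without control 1 the fit called 7 of the 27 lower (35.6%) and 0 higher (9.77%). The lowest p values were those of the regulatory subunit genes RPN9A (11.2, 11.7 and 12.7 FPKM with doxycycline and 14.6, 27.6 and 23.0 FPKM in controls, log2 difference -0.78, SE 0.254, limma adjusted p = 0.149) and RPN8A (-0.62, SE 0.211, adjusted p = 0.154), and of the core subunit gene PBB1 (-0.59, SE 0.201, adjusted p = 0.154).

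**Figure D4:**
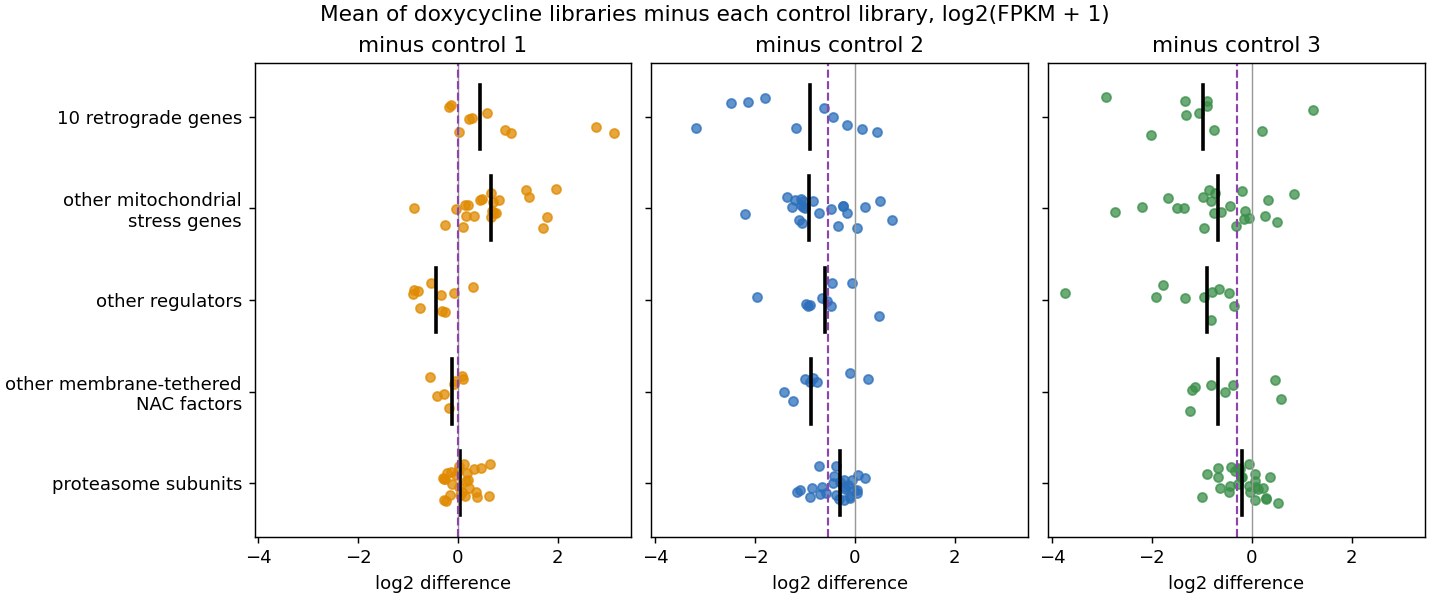
Mean of the doxycycline libraries minus control 1 (left), control 2 (middle) and control 3 (right), in log2(FPKM + 1) units, with a point for each tested gene of 5 lists. Black bars mark each list's median and dashed purple lines the median of all genes tested; the bars of the 10 retrograde genes and the other mitochondrial stress genes lie right of 0 against control 1 (0.44 and 0.67) and left of it against controls 2 and 3.

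Genes with the mitochondrial dysfunction motif in the 300-base window were also followed as a group. The motif was found in 8 of 24 other mitochondrial stress genes, AOX1A among them, in 0 of 13 other regulators and in 1 of 27 proteasome genes. Among the 177 tested genes that carry it, 10.2% lay above every control and 14.1% below, against 9.59% and 25.7% of all genes tested. Their median distances from controls 1 to 3 were 0.17, -0.52 and -0.20, against -0.00, -0.54 and -0.30 for all genes. Of the 10 members, UPOX and SOT12 with the motif lay above every control and NAC017 with it lay below. The other 3 members with the motif and the 4 without it overlapped the controls.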

How the data were processed

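Total RNA of whole seedlings was extracted with TRIzol and sequenced with a VAHTS Universal V6 library kit, per the labels' protocols. The authors deposited 1 table of FPKM values for 33532 identifiers; its header names no unit, and the unit was read from the values. TopHat2 2.1.0, Cufflinks 2.2.1 and the TAIR10 genome are named in the submitters' processing notes. Low values were whole multiples of 1 fragment (within 0.08) in only 53.9% to 66.0% of cases, so depths are estimates and no count test was run.

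Values were analysed as log2(FPKM + 1), which understates changes of low genes. The 19035 genes averaging 1 FPKM or more were fitted with limma 3.58.1 (R 4.3.3) without covariates, with a variance trend on abundance. Tests were two-sided, p-values were adjusted after Benjamini-Hochberg over these genes, and 0.05 was the threshold. The script was tested on simulated data. The 10 genes and all lists were chosen with earlier results of these data known. Named genes were the 10 members, AOX1A, the 3 tested genes of lowest p in each pathway list, the 2 most similar profiles per member, and genomic neighbours; other relatives were named after their values were seen. Promoters came from RefSeq TAIR10.1 by gene identifier, matched for 32789 identifiers. Alternatives included pseudocounts of 0.1 and 0.01, testing every gene above 0, testing those averaging 5 FPKM or more, 2 scalings, robust variances, a replicate block, each library left out, and control 1 as the only control.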

Additional observations from a re-analysis of the deposited data

How the results depend on the processing

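The count of genes past the threshold stayed at 0 under both other pseudocounts, both other filters, both scalings, robust variances (4830 genes at an unadjusted p under 0.05, against 4876) and the replicate block (4265). Leaving out each library in turn gave 0 to 8637 genes, with 8637 without control 1 and 2 without control 3, and 0 to 6 of the 10 retrograde genes. The 6 were called lower without control 1, as were 35.6% of genes tested. A fit with control 1 as the only control takes its error from the doxycycline libraries alone, so its counts cannot be set beside these. With control 1 as the only control there were 2467 genes and 4 of the 10, and 2194 and 3 when genes at 0 were kept, a setting added after seeing the data. Groups did not overlap in 3 of the 10 genes (35.3% of genes tested), in 2 after median-of-ratios scaling (35.2%), in 3 to 9 with a library left out, the 9 without control 1 (69.0%), and in 7 against control 1 alone (74.0%). Each fit with a library left out held the same number of samples. Leaving out a library other than control 1 gave at most 2 genes past the threshold. Groups then did not overlap in 38.6% to 43.9% of genes tested. The cause of the difference was not tested.

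Signs turned for AT12CYS-2 with pseudocounts of 0.1 (0.29) and 0.01 (0.62), without control 2 (0.94, in a range of -2.04 to 0.94 over left-out libraries) and against control 1 alone (2.77), and for UGT74E2 after median-of-ratios scaling (0.18) and quantile normalization (0.22), without doxycycline 3 (0.04), without control 3 (0.46, range -0.73 to 0.46) and against control 1 alone (1.07). Against control 1 alone they also turned for CYP81D8 (0.22), ABCB4 (0.29), NAC013 (0.94) and NAC053 (0.03). UPOX, BCS1, SOT12 and NAC017 kept their sign in all 16 alternatives.

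Same-numbered libraries did not deviate together (correlations across genes of -0.002, -0.014 and -0.137). No pairing by number was seen, though deviations of so few libraries cannot exclude shared plates or harvests. The replicate block called 0 of the 10 genes and left their differences as they were, with limma adjusted p from 0.137 (BCS1) to 0.883 (UGT74E2). Among the 10 genes, depth limits AT12CYS-2 in control 1, at about 1.29 fragments.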
